A study of Homo sapiens with 4 samples.

Results

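LIN28B, HMGA1, HMGA2, IGF2BP1, IGF2BP2 and IGF2BP3 are grouped here as oncofetal genes. Genes of this kind are typically active in the embryo, low in many adult tissues and switched on again in many tumours, which need not hold equally for all 6. The 6 genes were examined in squamous cell carcinoma lines transfected with miR-489 or miR-504, and were chosen by name. Every non-control probe of an Agilent human oligo-microarray that carried 1 of these 6 gene names, of 30982 names in all, was used. This gave 11 of 41000 probes and 20 of 43376 spots per array. IGF2BP3 had 1 probe and each of the other 5 genes had 2. One of the IGF2BP1 probes was printed 10 times and every other probe once.

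The data comprised 4 arrays, each read in 2 colours. The Cy5 channel held RNA of a line after transfection with either miRNA (miR-489 or miR-504), and the Cy3 channel RNA of that line after transfection with a control miRNA. All RNA was from 72 h after transfection. FaDu is an established line from a hypopharyngeal squamous cell carcinoma and HSC3 an established line from a tongue carcinoma. The conditions were miR-489 and miR-504 in FaDu, then miR-489 and miR-504 in HSC3, with 1 array each, and values of the 4 arrays are given in this order. A single scan of 1 slide gave all of them. The dyes were not swapped, so an effect of the dye on a probe and an effect of the transfected miRNA cannot be told apart in its ratio to the control. The labels do not state whether the 2 control RNAs of a line came from separate cultures. The p-values of the comparison between the lines therefore measure only the spread between the arrays of a line, which may be technical. In the fits of the ratios FaDu and HSC3 stand as the replicates of a miRNA, so the spread there also holds differences between the lines. The arrays were checked against markers of the cell type. All 8 squamous epithelial markers on the array (TP63, KRT5, KRT14, KRT17, CDH1, PERP, DSG3 and SFN) were well above background in the control RNA of both lines.

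The genes belong to a circuit around the let-7 family of miRNAs. LIN28B is an RNA-binding protein that holds back the maturation of let-7 precursors. Mature let-7 represses mRNAs that carry its target sites, and LIN28B itself, HMGA1, HMGA2 and the IGF2BP genes are well-known let-7 targets. HMGA1 and HMGA2 are architectural chromatin proteins that bind AT-rich DNA. The IGF2BP proteins bind mRNAs and affect their stability, location and translation.

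A mature miRNA recognises its targets mainly through the seed, bases 2 to 8 counted from its 5′ end. The sequences of the transfected miRNAs and of let-7a, taken from RefSeq (GRCh38.p14), are shown because the members are let-7 targets, so that the seeds can be compared. The RefSeq table lists 1 mature product of MIR489, at chr7:93483947-93483968, and both arms of MIR504, at chrX:138667760-138667781 (5p) and chrX:138667724-138667744 (3p), all on the minus strand. The let-7a-5p shown is that of MIRLET7A1, at chr9:94175962-94175983 on the plus strand. The labels do not name the arm that was transfected. Capitals mark the seed.
hsa-miR-489-3p: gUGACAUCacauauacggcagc
hsa-miR-504-5p: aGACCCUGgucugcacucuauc
hsa-miR-504-3p: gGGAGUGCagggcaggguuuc
hsa-let-7a-5p: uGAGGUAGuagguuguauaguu

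All 9 mature 5p members of the let-7 family in the table (the let-7 miRNAs and miR-98) had the seed GAGGUAG. None of the other 3 seeds was the same. Position by position, the seed of miR-489-3p matched it at 0 of 7 bases, and those of miR-504-5p and miR-504-3p at 3 of 7 each. No transcript sequence was used here, so sites for these seeds in the members were not searched.

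Signals were well above background in Cy3 for 58.2% to 59.2% of the spots of an array and in Cy5 for 61.2% to 62.6%. Replicate spots of 1 probe had a standard deviation of 0.063 to 0.073 on the log2 ratio scale, which covers printing and reading only. The control RNA on the 2 arrays of a line differed by a median of 0.15 (FaDu) and 0.19 (HSC3) in log2 Cy3 signal over 20914 probes. With 1 array per condition, the number of arrays limits the precision. Below, a log2 ratio is the background-subtracted Cy5 signal over the Cy3 signal of a spot, with the median of the bright probes of the array set to 0, so that it is below 0 where the miRNA transfectant held less.

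LIN28B, the let-7 antagonist of the group, gave a signal on 1 of the 4 arrays only. On the FaDu miR-489 array the spot of probe A_32_P224566 read 166 in Cy3 against a local background of 59, and 83.5 in Cy5 against 60. On the other 3 arrays the same probe read 80.5, 82 and 76.5 in Cy3 and 58.5, 56 and 60 in Cy5. None of these latter values was well above background. The other LIN28B probe, A_24_P769529, read 75 to 79 in Cy3 and 54 to 65 in Cy5 and was not well above background in either channel on any array. The 4 arrays thus held 1 spot of 8 from which a LIN28B ratio could be taken.

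**Figure D1:**
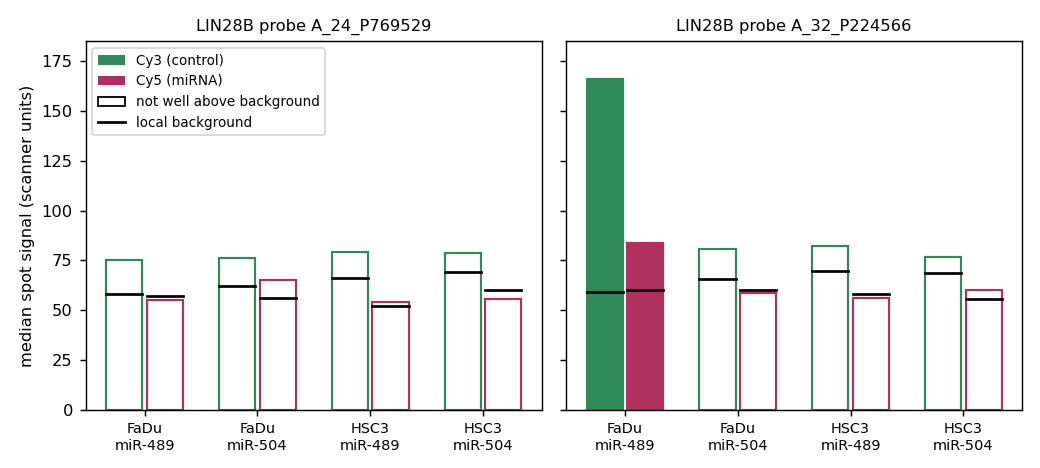
Median spot signal (scanner units, y axis) of the 2 LIN28B probes on the 4 arrays, for control RNA (Cy3, green) and miRNA transfectant RNA (Cy5, red); black lines are the local background and open bars are signals not well above it. Filled bars stand on the FaDu miR-489 array alone, at 166 (Cy3) and 83.5 (Cy5).

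The log2 ratio of that spot was −2.77, a ratio of 0.147. The deposited ratio of this same spot put LIN28B in the study's own list of genes lowered by miR-489 in FaDu cells, so the value is not independent of that list. Of 23557 probes with a Cy3 signal well above background on this array, 7.96% were at least 2-fold lower, and LIN28B was the 1 such probe among the 9 of these genes with a usable control signal. The deposited ratio of the spot, after the scanner software's own dye normalisation, was −2.68 in log2, and the ratio was −2.35 after loess and −1.39 after a normexp background correction.

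The high control signal of LIN28B was not shared by the other FaDu control RNA. Both Cy3 channels came from FaDu cells transfected with the control miRNA, at log2 levels of 6.84 on the miR-489 array and 4.03 on the miR-504 array. Because the dimmer spot was not well above background, the background-subtracted level was at least 5.28-fold higher on the first array than on the second. That bound depends on the background correction, since the Cy3 medians before subtraction were 166 and 80.5. A measured difference of this size (2.82 in log2) or larger in the same direction was found for 36 of 23553 other probes with a Cy3 signal well above background on the FaDu miR-489 array (0.153%), and for 14 of the 2802 other probes with a net Cy3 signal within 25% of that of LIN28B (0.500%). The median absolute difference of the 23553 probes was 0.16.

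The pixels of the LIN28B spot were also uneven. Their standard deviation in Cy3 was 88.2 on the FaDu miR-489 array, against 14.0 to 17.2 for the same probe on the other arrays. Among 1864 other spots of that array with a Cy3 median within 10% of its own, the standard deviation had a median of 31.1 and a highest value of 70.7. The scanner software did not mark the spot as an outlier. The part of this unevenness in the ratio was not tested. Since the probe was not well above background on all 4 arrays, LIN28B entered none of the fits across arrays, and no gene was sought whose pattern was like its own.

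HMGA2, which LIN28B activity favours by way of let-7, was measured well above background in both channels on every array. Its probe A_23_P95930 had net Cy3 signals of 277 and 496 on the FaDu miR-489 and miR-504 arrays and of 13091.5 and 18000 on the HSC3 arrays, in the same order. The net Cy5 signals were 544.5, 1083.5, 27951.8 and 35121.9. Signals in HSC3 were thus far above those in FaDu, in both channels and on every array.

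The ratios of HMGA2 to the control were small by comparison and had the same sign on the 4 arrays. They were 0.40, 0.48, 0.52 and 0.52 for A_23_P95930 and 0.20, 0.21, 0.17 and 0.33 for A_24_P85099 on the 4 arrays. No value reached 2-fold. With FaDu and HSC3 standing as the replicates of each miRNA, the mean log2 ratio of A_23_P95930 was 0.46 ± 0.080 (SE, n = 2 arrays) after miR-489 (limma, adjusted p = 0.00677) and 0.50 ± 0.080 after miR-504 (limma, adjusted p = 0.00636). These means were smaller after loess (0.30 and 0.33) and with the deposited ratios (0.28 and 0.31), and passed the test under both (limma, adjusted p = 0.0206 and 0.0177 after loess, 0.0317 and 0.0241 with the deposited ratios). The mean of A_24_P85099 passed the test after miR-504 (0.27, limma, adjusted p = 0.0395) and not after miR-489 (0.19, limma, adjusted p = 0.0949). The miR-504 call for A_24_P85099 was lost with loess (mean 0.16), the deposited ratios (mean 0.15), the cell line as a block and no filter on dim probes (limma, adjusted p = 0.153, 0.190, 0.0535 and 0.106), and its miR-489 mean passed with normexp and without background subtraction (limma, adjusted p = 0.0350 and 0.0131). Without the FaDu or the HSC3 miR-504 array no HMGA2 probe passed for miR-504 (limma, adjusted p = 0.0665 to 0.286).

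HMGA1, the close relative of HMGA2, gave different ratios on its 2 probes. Probe A_23_P42331 stayed near 0, at 0.027, −0.10, −0.030 and 0.033 on the 4 arrays. Probe A_24_P222043 was lower on all 4, at −0.56, −0.39, −0.48 and −0.55. Its mean passed the test for miR-489 (−0.52 ± 0.085 SE, limma, adjusted p = 0.00545) and for miR-504 (−0.47 ± 0.085 SE, limma, adjusted p = 0.00904). The mean of the brighter probe A_23_P42331 did not (−0.0015 and −0.034), although it was −0.22 and −0.21 after loess and, with the deposited ratios, passed for miR-504 (−0.26, limma, adjusted p = 0.0470). The miR-504 call of A_24_P222043 was lost without either miR-504 array and without the filter on dim probes (limma, adjusted p = 0.0596, 0.105 and 0.0525). RefSeq names 7 HMGA1 pseudogenes, 3 of IGF2BP2 and 2 of IGF2BP3. Without probe sequences, a share of their transcripts in the signals of these 3 genes was not tested.

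IGF2BP3 was below its control on every array. Its ratios were −0.81, −0.61, −0.71 and −0.52 on the 4 arrays. All 4 lay between no change and a 2-fold fall. With a single probe and no dye swap, an effect of the dye and of the miRNAs cannot be told apart here. In the same fits 26.3% (miR-489) and 23.1% (miR-504) of 20914 probes were called lower. The mean was −0.76 ± 0.081 (SE, n = 2 arrays) after miR-489 (limma, adjusted p = 0.00177) and −0.56 ± 0.081 after miR-504 (limma, adjusted p = 0.00474). Without the FaDu miR-504 array the latter call was lost (limma, adjusted p = 0.0663).

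IGF2BP1 ratios differed in sign between its probes in FaDu and were above 0 on both in HSC3, where those of A_23_P83498 lay just below 0 after loess (−0.046 and −0.055) and with the deposited ratios (−0.019 and −0.034). Probe A_23_P343954 gave 0.39, 0.34, 0.11 and 0.25 on the same arrays. Probe A_23_P83498, with its 10 spots, gave −0.20 ± 0.063 (SD over spots), −0.24 ± 0.067, 0.094 ± 0.036 and 0.058 ± 0.037. The means of both probes missed the threshold for miR-489 (limma, adjusted p = 0.0775 and 0.727) and for miR-504 (limma, adjusted p = 0.0526 and 0.551), although A_23_P343954 passed for both with normexp (limma, adjusted p = 0.0496 and 0.0337) and without background subtraction (limma, adjusted p = 0.0405 and 0.0368). For miR-504 it also passed with the cell line as a block (limma, adjusted p = 0.0414) and without either miR-489 array (limma, adjusted p = 0.0359).

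IGF2BP2 was bright enough for a ratio on every array with 1 of its probes. Probe A_23_P250156 gave 0, −0.15, 0.23 and 0.087, and its means did not pass the test (limma, adjusted p = 0.389 for miR-489 and 0.813 for miR-504). Probe A_23_P95672 gave −0.77 and −0.75 on the HSC3 miR-489 and miR-504 arrays (−0.44 and −0.45 after loess). In FaDu it was not well above background in either channel, so it entered none of the ratio fits.

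**Figure D2:**
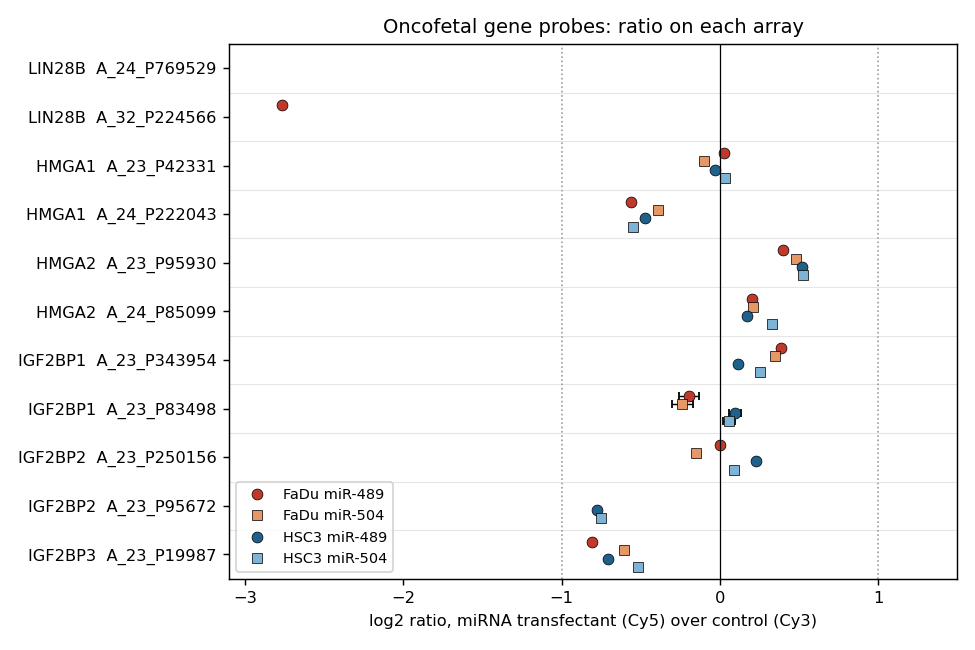
Log2 ratio of miRNA transfectant over control (x axis) for each probe of the 6 genes (y axis) on the 4 arrays; only spots well above background in both channels are drawn, bars on IGF2BP1 A_23_P83498 are the SD over its 10 spots, and dotted lines mark 2-fold. LIN28B on the FaDu miR-489 array (−2.77) is the single value past a dotted line, and IGF2BP3 (−0.81 to −0.52) and HMGA2 (0.17 to 0.52) lie on opposite sides of 0.

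Calls were also counted by array. On the FaDu miR-489 array 1 of 9 probes with a usable control signal (LIN28B) was at least 2-fold lower, against 7.96% of all such probes. On the FaDu miR-504 array 0 of 8 probes with a usable control signal were at least 2-fold lower, against 5.44% of all such probes. On the HSC3 miR-489 array the count was 0 of 9 (7.44% of all probes) and on the HSC3 miR-504 array 0 of 9 (4.55%). No member was at least 2-fold higher on any array, where 2.95%, 2.35%, 2.82% and 1.95% of all probes with a usable Cy5 signal were on the 4 arrays. In the fit of miR-489 against the control 2 of 8 member probes fell (HMGA1 A_24_P222043 and IGF2BP3) and 1 rose (HMGA2 A_23_P95930), against 26.3% of 20914 probes falling and 30.9% rising. In the fit of miR-504 the same 2 fell and both HMGA2 probes rose, against 23.1% and 26.7%. With 8 or 9 probes tested, these counts are near the background shares and are no result about the members as a group.

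The miRNAs were then compared with each other, a contrast in which a dye effect common to the arrays cancels. None of the 8 member probes tested differed between miR-489 and miR-504 (0 called by limma, and 0 with an unadjusted p under 0.05), where 0.755% of all probes were lower after miR-489 and 0.306% higher. The differences of the members ran from −0.20 for IGF2BP3 to 0.15 for IGF2BP2 A_23_P250156. For IGF2BP3 the 95% interval was −0.48 to 0.095 (limma, adjusted p = 0.434). It covers no difference as well as one as large as −0.48 in log2. The IGF2BP3 ratio was lower after miR-489 than after miR-504 in both lines, by 0.20 in FaDu and 0.19 in HSC3 on the log2 scale. No member was called in this contrast with normexp, without background subtraction, with loess, with the deposited ratios, with both channels required well above background or with the cell line as a block. Without the filter on dim probes, or with an array left out, 0 of all probes were called, so those settings say nothing of the members.

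The second question was how far the 2 lines differed in these genes without either miRNA, which the Cy3 channel of the control transfectants measures. Of the 8 member probes well above background in the control RNA on all 4 arrays, 5 were higher in HSC3 and 2 were lower, against 20.4% higher and 28.2% lower of 20914 such probes. The higher ones were both HMGA2 probes, 1 IGF2BP2 probe, the IGF2BP3 probe and 1 IGF2BP1 probe. The lower ones were the HMGA1 probes. A ninth probe, IGF2BP2 A_23_P95672, entered the fit through the HSC3 arrays alone, so it had to differ and its p-value is not used. The fit held 24118 probes, of which 20.9% were higher in HSC3 and 27.0% lower. In bulk RNA, fewer cells with a transcript and less of it per cell cannot be told apart.

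**Figure D3:**
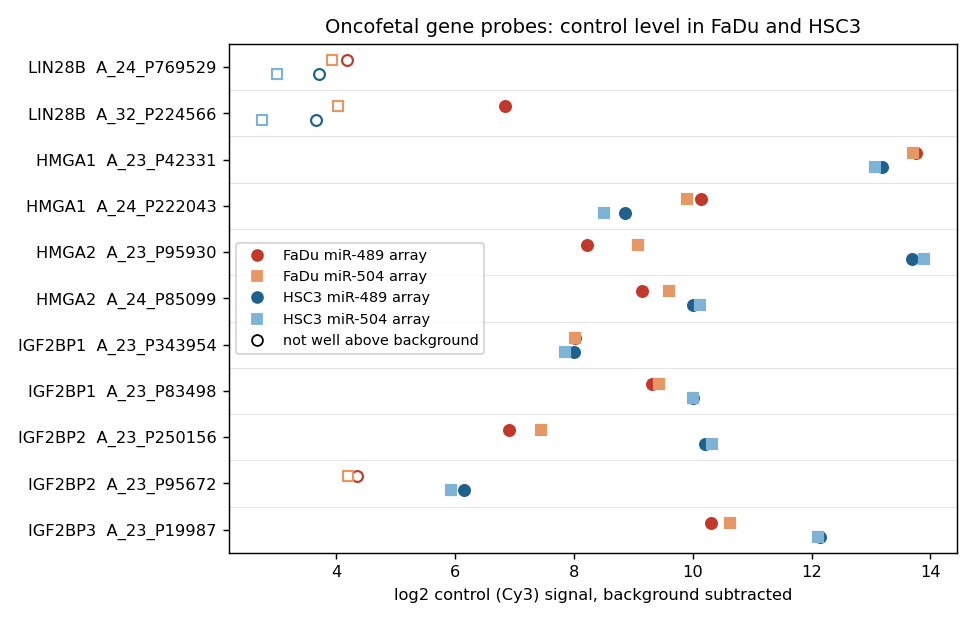
Background-subtracted control signal (Cy3, log2 scale, x axis) of each probe (y axis) on the 2 FaDu arrays and the 2 HSC3 arrays; open symbols are not well above background, and levels of different probes are not comparable. The lines separate most at HMGA2 A_23_P95930 (8.21 and 9.07 in FaDu, 13.70 and 13.90 in HSC3).

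HMGA2 showed the largest difference of the group. The log2 control levels of A_23_P95930 were 8.21 and 9.07 on the FaDu miR-489 and miR-504 arrays and 13.70 and 13.90 on the HSC3 arrays. The difference was 5.15 ± 0.30 (SE, n = 2 arrays per line), or 35.6-fold (limma, adjusted p = 0.000313). The 2 FaDu controls were themselves 0.86 apart. In the Cy5 channel, which holds the miRNA transfectants, the difference was 37.0-fold.

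The other HMGA2 probe gave a much smaller difference. Its control levels were 9.15 and 9.60 in FaDu and 10.01 and 10.12 in HSC3, a difference of 0.69 ± 0.20 (SE) or 1.61-fold (limma, adjusted p = 0.0322). The call was lost without the FaDu miR-489 array (limma, adjusted p = 0.176), without either HSC3 array (limma, adjusted p = 0.0545 and 0.0875), with the deposited processed Cy3 signal (limma, adjusted p = 0.0649) and without the filter on dim probes (limma, adjusted p = 0.125). The HMGA2 probes thus disagreed by 4.46 on the log2 scale on how far the lines differ. Of 4648 genes with at least 2 tested probes, 6 had probes that disagreed by as much, HMGA2 included (0.129%), and the median disagreement was 0.27. Both probes are assigned to the same transcript on chromosome 12. In the array's annotation A_24_P85099 covers a stretch of 124702 bases, as a probe across introns does, and A_23_P95930 lies 2755 bases beyond it. HMGA2 is known for truncated and fused transcripts that lack the end of the gene, and whether the lines differ in this was not tested.

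IGF2BP2 and IGF2BP3 were higher in HSC3 on the probes measured in both lines. IGF2BP2 A_23_P250156 had control levels of 6.91 and 7.44 in FaDu and 10.21 and 10.32 in HSC3, which is an 8.51-fold difference (3.09 ± 0.21 SE, limma, adjusted p = 0.000467). IGF2BP2 A_23_P95672 was well above background in HSC3 only, at 6.16 and 5.94 against 4.35 and 4.21 in FaDu. Its level in HSC3 was at least 2.90-fold higher, the mean of the HSC3 arrays set against the lowest signal well above background on each FaDu array, or the probe's own where higher. That bound depends on the background correction, since the measured difference was 1.77 on the log2 scale here and 0.62 with normexp. The IGF2BP3 levels were 10.31 and 10.63 in FaDu and 12.14 and 12.10 in HSC3, a 3.13-fold difference (1.65 ± 0.17 SE, limma, adjusted p = 0.00130). The lines did not overlap on IGF2BP2 A_23_P250156 or IGF2BP3. With 2 arrays per line this says little, since they did not overlap on IGF2BP1 A_23_P343954 either, whose difference did not pass the test.

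IGF2BP1 differed less between the lines. The probe with 10 spots had control levels of 9.32 and 9.43 in FaDu and 10.003 and 10.003 in HSC3 (1.55-fold higher in HSC3, limma, adjusted p = 0.0167). This call was lost without the FaDu miR-489 array (limma, adjusted p = 0.108), without the FaDu miR-504 array (limma, adjusted p = 0.0713) and without the filter on dim probes (limma, adjusted p = 0.0839). The other probe, at 8.02 and 8.02 in FaDu and 7.997 and 7.848 in HSC3, differed by −0.10 (95% interval −0.47 to 0.27, limma, adjusted p = 0.613).

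HMGA1 went the other way. Probe A_24_P222043 had control levels of 10.13 and 9.91 in FaDu and 8.85 and 8.51 in HSC3, 2.53-fold lower in HSC3 (−1.34 ± 0.19 SE, limma, adjusted p = 0.00307). Probe A_23_P42331 had levels of 13.76 and 13.70 in FaDu and 13.19 and 13.07 in HSC3, 1.52-fold lower (limma, adjusted p = 0.0203). Its call was lost in the Cy5 channel (limma, adjusted p = 0.0551), without the filter on dim probes (limma, adjusted p = 0.0947) and without the FaDu miR-489, FaDu miR-504 or HSC3 miR-504 array (limma, adjusted p = 0.115, 0.0908 and 0.0572).

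**Figure D4:**
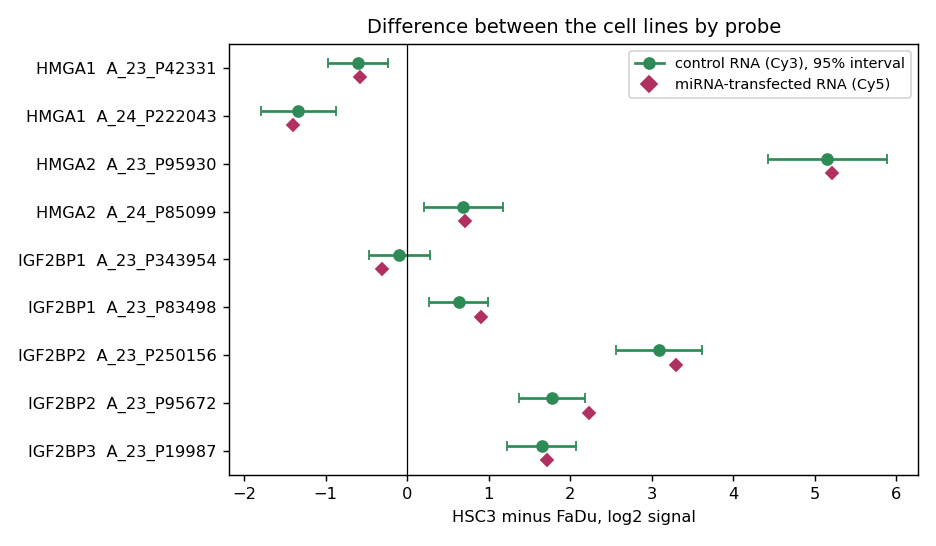
HSC3 minus FaDu on the log2 scale (x axis) for the 9 member probes tested (y axis), in control RNA (Cy3, green circles with 95% intervals from limma) and in miRNA transfectants (Cy5, red diamonds); IGF2BP2 A_23_P95672 was not well above background in FaDu. Of the HMGA2 probes, A_23_P95930 lies at 5.15 and A_24_P85099 at 0.69, and both HMGA1 probes lie below 0.

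LIN28B could not be placed between the lines. Its probes were not well above background in either HSC3 control, and 1 of the 4 FaDu control spots was.

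A marker of mesenchymal cells, VIM, also differed strongly between the lines. Of 6 markers of mesenchymal, haematopoietic and endothelial cells, VIM, the intermediate filament vimentin, was well above background in both lines, COL1A1 in HSC3 only, and COL1A2, PDGFRB, PTPRC and PECAM1 in neither. On 1 of its 2 probes, VIM was 9.54 higher in HSC3 on the log2 scale (limma, adjusted p = 3.43e-05), and its other probe is not given. COL1A1, a collagen chain that entered the fit through the HSC3 arrays alone, had control levels of 4.72 and 4.51 in FaDu and 5.45 and 5.09 in HSC3, a difference of 0.66. The summed linear Cy3 signal of the 6 markers was 131 and 135 in FaDu and 34811 and 27853 in HSC3. In HSC3 nearly all of that sum was VIM, at log2 levels of 15.08 and 14.76. The part of these marker differences in the levels of HMGA2 and the IGF2BP genes was not tested.

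The stretches of 250 bases upstream of the RefSeq start are shown for IGF2BP2 and IGF2BP3, members whose probes were all brighter in the HSC3 controls. The first lies at chr3:185825043-185825292 and the second at chr7:23470492-23470741 (GRCh38.p14), both on the minus strand, and for IGF2BP2 the first of 2 listed starts was taken. HMGA2, whose probes were also all brighter in the HSC3 controls, had no entry among the promoter stretches and is not shown. Capitals mark a GC box (GGGCGG, or CCGCCC on the other strand, where overlapping matches run together) or an E-box (CACGTG, which reads the same on both strands).
IGF2BP2: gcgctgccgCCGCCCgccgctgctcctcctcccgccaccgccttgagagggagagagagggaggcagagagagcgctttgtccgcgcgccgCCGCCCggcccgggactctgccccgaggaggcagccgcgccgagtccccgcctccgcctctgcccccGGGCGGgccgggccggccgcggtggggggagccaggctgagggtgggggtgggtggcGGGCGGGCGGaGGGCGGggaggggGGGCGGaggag
IGF2BP3: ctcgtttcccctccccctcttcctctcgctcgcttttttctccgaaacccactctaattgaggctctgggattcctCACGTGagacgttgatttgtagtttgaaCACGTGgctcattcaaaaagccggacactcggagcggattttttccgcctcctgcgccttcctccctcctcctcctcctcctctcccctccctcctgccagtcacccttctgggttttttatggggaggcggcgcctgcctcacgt

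The IGF2BP2 stretch held 7 GC boxes and 0 E-boxes, and 81.6% of its bases were G or C. The IGF2BP3 stretch held 0 GC boxes and 2 E-boxes at 56.8% G or C. Over all 35116 promoter stretches of the same length in the table, 42.6% held a GC box and 6.34% an E-box, with a median of 58.0% G or C. A match is a description of these letters only.

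The remaining genes of the circuit were described from lists of known let-7 processing factors, let-7 targets and oncofetal genes, with each gene represented by its brightest probe. Each fold is thus that of 1 probe. Line differences on further probes of a gene are not given (CCND2 and H19 had 3 probes, BACH1 and E2F2 had 2). Of 8 processing factors on the array, 7 were tested, and LIN28A, the paralogue of LIN28B, was not well above background in any control RNA. In control RNA 4 of the 7 were lower in HSC3 and 1 was higher, where 27.0% and 20.9% of all probes were, with a median difference of −0.58 against −0.078 over all probes. XPO5, which exports miRNA precursors from the nucleus, was 3.13-fold lower (9.06 and 9.30 in FaDu, 7.77 and 7.30 in HSC3, limma, adjusted p = 0.00239). The nuclear processing enzyme DROSHA was 1.79-fold lower, the let-7 maturation factor KHSRP 1.70-fold lower and the cytoplasmic enzyme DICER1 1.49-fold lower, whereas DGCR8, the partner of DROSHA, was 1.83-fold higher. Neither TUT4 nor TUT7, which add uridines to let-7 precursors bound by LIN28 proteins, passed the test (−0.081 and 0.28).

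Of 19 other let-7 targets on the array, 16 were tested, of which 6 were higher in HSC3 and 1 was lower (20.9% and 27.0% of all probes), with a median difference of 0.35. CCND2, a D-type cyclin, was the furthest apart at 32.2-fold higher in HSC3 (7.86 and 7.97 in FaDu, 13.12 and 12.73 in HSC3, limma, adjusted p = 0.000109). The transcription factor BACH1 was 4.87-fold, HRAS 1.92-fold, the ubiquitin-conjugating enzyme CDC34 1.92-fold and the cell cycle kinase CDK6 1.86-fold higher, and the cell cycle factor E2F2 was 3.87-fold lower. MYC (0.17) and NRAS (−0.26) did not pass the test.

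Of 8 other oncofetal genes, IGF2, AFP, GPC3, DLK1 and CEACAM5 were not well above background in any control RNA. The other 3 passed the test. H19, the noncoding neighbour of IGF2, differed by −3.56 on the log2 scale between HSC3 and FaDu (10.28 and 10.45 in FaDu, 5.75 and 7.85 in HSC3, limma, adjusted p = 0.00681), although its HSC3 controls were 2.11 apart. SALL4, a transcription factor of embryonic stem cells, was 5.63-fold lower in HSC3, and PLAG1, a zinc finger activator of IGF2, was 2.34-fold higher. HMGA2, IGF2BP2, IGF2BP3 and PLAG1 were thus higher in HSC3, and HMGA1, SALL4 and H19 higher in FaDu. The HMGA2 probes differed widely in the size of the difference, and IGF2BP1 was called higher in HSC3 on A_23_P83498 only.

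**Figure D5:**
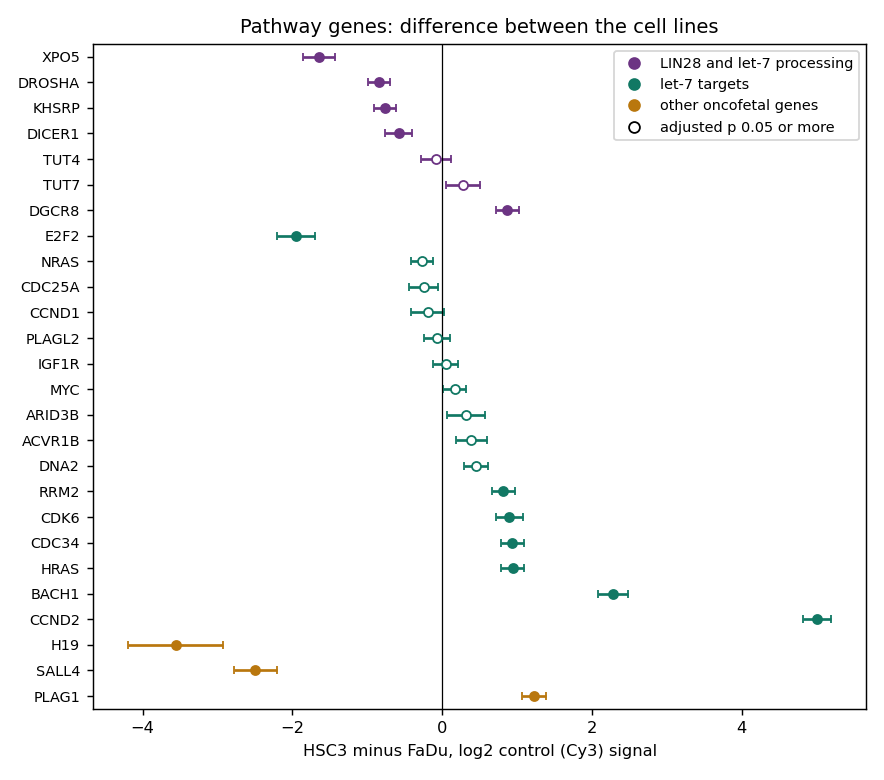
HSC3 minus FaDu in log2 control signal (x axis, bars are SE from limma) for the tested genes of 3 lists (y axis, colours); open symbols have an adjusted p of 0.05 or more. CCND2 (5.01) and BACH1 (2.28) lie furthest to the right and H19 (−3.56) furthest to the left.

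None of the 26 tested genes of these lists differed between miR-489 and miR-504 (0 called by limma, with 5 at an unadjusted p under 0.05, as were 3869 of all 20914 probes). Those 5, named after their values were seen, were CCND2 (0.80), DNA2 (0.60) and CDC25A (0.33), higher after miR-489, and ARID3B (−0.48) and PLAG1 (−0.45), lower. Against the control, 3 of the 16 let-7 targets fell and 5 rose after miR-489 (26.3% and 30.9% of all probes), and 6 fell and 5 rose after miR-504 (23.1% and 26.7%). Of the 7 processing factors 3 fell and 2 rose after miR-489, and 4 fell and 1 rose after miR-504, beside the same shares of all probes. With so few genes tested, nothing is read from these counts.

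By the 4 log2 ratios, the probes of named genes most like HMGA2 A_23_P95930 among 16352 candidates were those of CECR5, C3orf54 and ZNF692. Their root mean square differences from HMGA2 over the 4 arrays were 0.028, 0.028 and 0.029, and their ratios ran from 0.40 to 0.55. These differences are below the standard deviation of replicate spots.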

How the data were processed

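Total RNA was measured on 4 Agilent arrays in 2 colours. The authors deposited scanner output of Agilent Feature Extraction 9.5.3.1, with a median intensity for the spot and 1 for the background around it, per channel and not normalised, and marks of 0 or 1 for outlier spots, saturation and signal well above background. The deposited log10 ratio of each spot was made by that software after its own dye normalisation, and a deposited table held the same log10 ratio values (largest difference 0).

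Local background was subtracted from the median intensity, and the median log2 ratio of probes that were well above background in Cy3 and in Cy5 was set to 0 (it had been 0.44 to 0.65), outlier spots (118 to 137 per array) were left out and replicate spots were averaged. No spot was saturated (0). Control levels are log2 Cy3 with the array medians made equal. limma was fitted across 20914 probes with Cy3 well above background on all 4 arrays (ratios) or 24118 with Cy3 well above background on both arrays of a line (levels), with 2 residual degrees of freedom, and the Benjamini-Hochberg adjustment was used with a threshold of 0.05. In a simulation with 200 probes changed by 2 on the log2 scale, 189 were recovered for miR-489 against miR-504 with 16 false calls, and 170 for FaDu against HSC3 with 9. Recovery of changes as small as the member differences between the miRNAs (−0.20 to 0.15), or of line differences below 2, was not tested. The fits against the control were not simulated.

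The members, lists and tests were chosen with earlier results of these data known. All members and probes were named, together with up to 6 genes of each list called in a contrast. Some genes of the let-7 target list are not reported here and were left out of its counts. Alternatives were normexp (offset 50), no background subtraction, loess (span 0.3), the deposited ratios and signals, quantile normalisation, other filters on dim probes, the cell line as a block, the Cy5 channel and leaving out each array. Fits were made in R 4.3.3 with limma 3.58.1, sequences were read with pandas 2.3.3 under Python 3.11.15, and plots were drawn with matplotlib 3.10.9. The build of the array's probe positions is not given in the sources used here, so only distances between probes are printed.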

Additional observations from a re-analysis of the deposited data

Results flagged for a closer look

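IGF2BP1 was singled out because its 10-spot probe A_23_P83498 moved in opposite directions in the 2 lines. Its log2 ratios were −0.20 and −0.24 on the FaDu miR-489 and miR-504 arrays and 0.094 and 0.058 on the HSC3 arrays, so that HSC3 exceeded FaDu by 0.29. The difference did not pass the test (limma, adjusted p = 0.9999), and 0 of 20914 probes were called in that contrast, with 664 at an unadjusted p under 0.05. After loess the HSC3 ratios were −0.046 and −0.055, and with the deposited ratios −0.019 and −0.034, so the opposite signs depended on the normalisation, whereas HSC3 stayed above FaDu on both arrays under each of these settings. The second IGF2BP1 probe went the other way, with means of 0.36 in FaDu and 0.18 in HSC3.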

How the results depend on the processing

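The count of LIN28B, HMGA and IGF2BP values at least 2-fold from the control was 1 under every setting. For miR-489 against miR-504, the 222 probes called became 672 with normexp, 495 without background subtraction, 347 with loess, 390 with the deposited ratios, 376 with the cell line as a block and 0 without the filter on dim probes (3131 at an unadjusted p under 0.05). Leaving out any array gave 0 calls (from 0 to 0, with 2051 to 3699 at an unadjusted p under 0.05), since 1 miRNA then had a single array, assumed to vary like the rest. For miR-504 against the control, 10410 calls became 3335 without the FaDu miR-504 array, 4072 without the HSC3 miR-504 array and 10979 without either miR-489 array (3335 to 10979 over arrays left out). For miR-489 the range was 8599 to 10431, below the 11953 with all arrays. For FaDu against HSC3, 11555 calls became 5999 without the filter on dim probes and 7309 to 10967 with 1 array left out. The cause of these shifts was not tested beyond the smaller number of arrays.

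Among single member probes no direction of a called value was reversed. For miR-489 against the control, the calls of HMGA1 A_24_P222043, HMGA2 A_23_P95930 and IGF2BP3 held under all alternatives. So did the line differences of HMGA1 A_24_P222043, HMGA2 A_23_P95930, IGF2BP2 A_23_P250156 and IGF2BP3. For miR-504 against the control, the calls lost without an array are given with each gene. The labels give no replicate numbers, but each miRNA was run in both lines, so the cell line as a block is the paired fit. It called no member for miR-489 against miR-504, and against the control it changed the calls of HMGA2 A_24_P85099 and IGF2BP1 A_23_P343954 for miR-504 alone (limma, adjusted p = 0.0535 and 0.0414). Signal over background limits LIN28B and IGF2BP2 A_23_P95672 in FaDu.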
